A study of Mus musculus with 6 samples.

Results

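LINE-1 (L1) restriction factors are host proteins that act on the RNA of the L1 retrotransposon, on the cDNA copied from it or on the RNA-DNA hybrid formed on the way. They were examined here as 9 genes taken by symbol, a rule that uses no measured value: Mov10, Zc3hav1, Samhd1, Trex1, Apobec3, Rnaseh2a, Rnaseh2b, Rnaseh2c and L1td1. The choice of members was nonetheless made with earlier results of these data known. All 9 were present among the 24421 genes of the count table. Of these, 8 had enough reads to be tested, and L1td1 had 0 counts in every library.

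RNA was sequenced from 4T1-tetL1(GLucAI) cells, derived from the mouse breast carcinoma line 4T1 (strain given as BALB/cfC3H). In both groups the cells carried the same cassette, a stably selected population rather than 1 clone, in which a doxycycline-responsive bidirectional promoter drives firefly luciferase and a recoded mouse L1 with a Gaussia luciferase retrotransposition reporter, and the EF1α promoter drives the transactivator. One group of 3 libraries was untreated (the treatment tag reads vehicle), and the other group of 3 was kept in 400 ng/mL doxycycline for 48 h. No cells without the cassette were given doxycycline among these samples, so effects of the drug and of L1 induction cannot be told apart. The transcript of the cassette was not analysed here, so the labels of the groups were not checked against it. Nothing in the labels says whether the libraries of a group came from separate cultures, although the study calls them biological triplicates, and the p-values measure the spread between these samples, which may be technical.

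L1 moves by transcription, translation of its RNA-binding ORF1 protein and of its endonuclease and reverse transcriptase ORF2 protein, and copying of the RNA into DNA at a nicked chromosomal site. Host factors meet this cycle at successive steps. MOV10 and ZAP (the product of Zc3hav1) bind the RNA, SAMHD1 depletes the nucleotides needed for reverse transcription, APOBEC3 and TREX1 act on single-stranded or cytosolic DNA, and RNase H2 cuts RNA in RNA-DNA hybrids. Several of these genes are also inducible by interferon.

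Library totals ran from 31653464 to 43631312 counts and overlapped between the groups. The keratins Krt8 and Krt18 of simple epithelia were high in both groups, at means of 410 and 633 CPM (counts scaled to library size) in untreated libraries, and Epcam stood at 33.2 CPM. The basal keratin Krt5 had 0 counts, while Krt14, also a basal keratin, was low but present at 3.04 ± 0.512 CPM in untreated and 2.65 ± 0.604 CPM in doxycycline libraries. Of 8 leukocyte markers only the lysosomal gene Cd68 was tested (9.9 CPM untreated), and Adgre1 and Ncr1 had 0 counts; the summed level of the list was 9.5 to 11.9 CPM in untreated libraries and 8.96 to 11.1 CPM in doxycycline libraries. Of 8 fibroblast and endothelial markers, Pdgfra, a growth factor receptor, was the member that passed the test, falling from 36.7 to 27.8 CPM (log2 fold change -0.40, edgeR adjusted p 0.000952), and the other 7 had means under 1 CPM. The sum of that list, nearly all of it from Pdgfra, was 36.1 to 39 CPM in untreated and 28.2 to 29.8 CPM in doxycycline libraries. Krt19 also fell (log2 fold change -0.31, SE 0.06, with adjusted p 0.00782 by edgeR). In bulk RNA, fewer cells of a type and less RNA per cell cannot be told apart. The part of these markers in the results on the restriction factors was not tested.

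None of the 8 tested restriction factors passed an adjusted p of 0.05 in the edgeR quasi-likelihood test, that is, 0 were called higher and 0 lower. Of all 13084 tested genes 3.09% were called, 0.925% higher and 2.16% lower. At an unadjusted p under 0.05 there were 2 members, Mov10 and Rnaseh2b, beside 16.2% of all tested genes. The DESeq2 Wald test and limma voom also called 0 members. The median log2 fold change of the 8 genes was -0.06, where that of all tested genes was 0.0025. In 5 of the 8 the values of the groups did not overlap, 4 lower and 1 higher with doxycycline, where 11.1% of all tested genes lay apart and lower, 10.1% apart and higher, and 21.3% apart in either direction. Their log2 fold changes lay between -0.20 for Trex1 and 0.22 for Rnaseh2b.

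**Figure D1:**
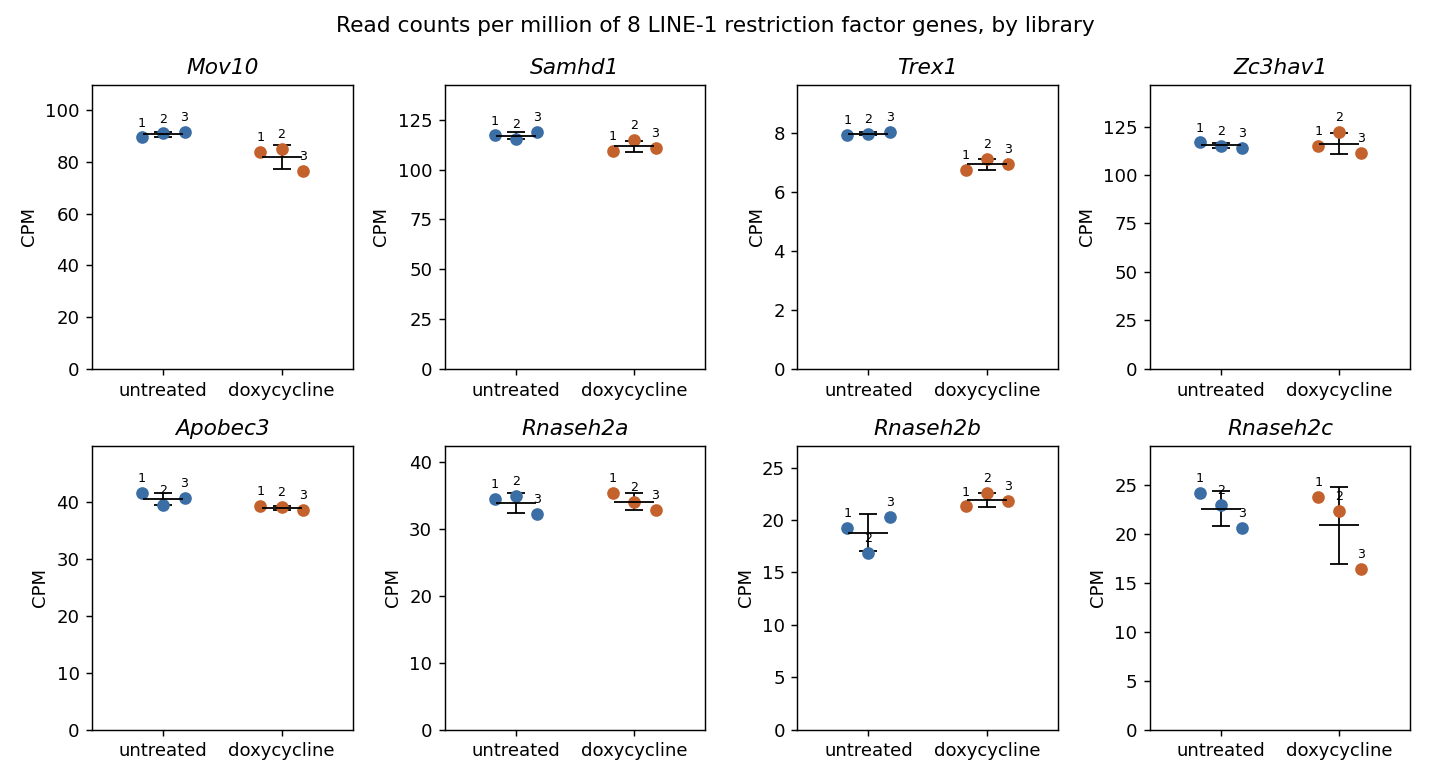
CPM (vertical axes, from 0) of the 8 tested restriction factor genes in each library (points, numbered by replicate), with the mean and SD of each group of 3. The groups separate for Mov10, Samhd1, Trex1, Apobec3 and Rnaseh2b, all by small amounts, and replicate 3 of doxycycline stands low for Rnaseh2c at 16.4 CPM.

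**Figure D2:**
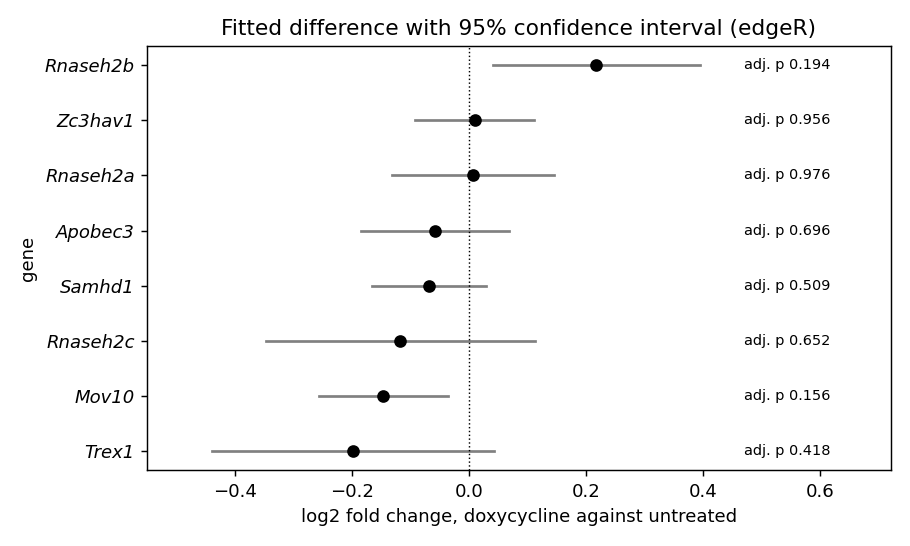
Log2 fold change of doxycycline against untreated libraries (points) with its 95% confidence interval (lines) from edgeR for the 8 genes, with adjusted p-values at the right. The intervals of Mov10 and Rnaseh2b leave out 0 before adjustment, and the smallest adjusted p is 0.156.

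Mov10 encodes an RNA helicase that associates with L1 ribonucleoprotein and lowers L1 RNA. It lies on chromosome 3 (104794828 to 104818619, minus strand, GRCm38, protein-coding; gene positions here and for the other members are the outermost ones in RefSeq). Untreated replicates 1 to 3 had 89.4, 91 and 91.4 CPM, and doxycycline replicates 1 to 3 had 83.8, 85.1 and 76.6 CPM. All doxycycline libraries lay below all untreated libraries, and doxycycline replicate 3 was the lowest. The means were 90.6 ± 1.04 and 81.9 ± 4.57 CPM (SD, n = 3 each). The fitted log2 fold change was -0.15 (SE 0.05, with adjusted p 0.156 by edgeR). The 95% interval ran from 0.837-fold to 0.975-fold. Mov10 had the smallest p of the members. It passed the threshold in 2 of 16 alternative analyses, without doxycycline replicate 2 (log2 fold change -0.18, edgeR adjusted p 0.0265) and with a correction for GC content and length (-0.16, edgeR adjusted p 0.0391). Across all 16 the value ran from -0.18 to -0.10, with adjusted p from 0.0265 to 0.458. The genes whose profile over the 6 libraries was most like that of Mov10 were Hdac1, a histone deacetylase, and Slfn8, a Schlafen family gene. They differed from it by a mean of 0.0154 and 0.0179 in centred log2 CPM, where Mov10 itself spanned 0.25.

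Zc3hav1 encodes ZAP, a zinc finger antiviral protein that binds CpG-rich RNA and brings it to decay. It lies on chromosome 6 (38305286 to 38355352, minus strand). Its level was 117, 115 and 114 CPM in untreated replicates 1 to 3 and 115, 122 and 111 CPM in doxycycline replicates 1 to 3. The groups overlapped, and the doxycycline libraries held both the highest and the lowest value. The means were 115 ± 1.37 and 116 ± 5.45 CPM (SD, n = 3 each). The log2 fold change was 0.01 (SE 0.05, with adjusted p 0.956 by edgeR), with an interval from 0.938-fold to 1.08-fold.

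The partners of these RNA-binding proteins gave little movement. Of 15 genes that work with MOV10 or ZAP in RNA decay or uridylation, or that are related to ZAP, all 15 were tested and 0 were called higher or lower. Their median log2 fold change was -0.03, with 5 above 0 and 10 below, where 50.8% of all tested genes lay above 0. Khnyn, a proposed nuclease partner of ZAP, had the smallest p of the list, with 18.6 ± 1.22 CPM in untreated and 16.1 ± 0.536 CPM in doxycycline libraries (SD, n = 3 each; log2 fold change -0.21, edgeR adjusted p 0.224). In a list of 10 genes of RNA editing, cleavage and decay 0 were called and the median log2 fold change was 0.04. Of these 10, 2 had an unadjusted p under 0.05 by edgeR, beside 16.2% of all tested genes. Dicer1, which cuts double-stranded RNA, stood at 169 ± 4.97 and 187 ± 2.66 CPM (log2 fold change 0.14, SE 0.04, with adjusted p 0.0915 by edgeR), and its groups did not overlap.

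Samhd1 encodes a deoxynucleotide triphosphohydrolase that limits reverse transcription by lowering nucleotide pools. It lies on chromosome 2 (157097534 to 157135096, minus strand). The untreated libraries had 117, 115 and 119 CPM, and the doxycycline libraries 109, 114.9 and 111 CPM in replicate order. The groups did not overlap, yet untreated replicate 2 (115.4 CPM) and doxycycline replicate 2 (114.9 CPM) lay next to each other. The means were 117 ± 1.7 and 112 ± 2.84 CPM (SD, n = 3 each). The fitted log2 fold change was -0.07 (SE 0.05, with adjusted p 0.509 by edgeR, interval 0.892-fold to 1.02-fold). In a list of 14 genes of nucleotide supply and of DNA or hybrid removal, 13 were tested and 0 were called, with 0 at an unadjusted p under 0.05 and a median of 0.04. Nme1, a nucleoside diphosphate kinase, had the smallest p of this list (log2 fold change 0.09, edgeR adjusted p 0.373).

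Trex1 encodes a 3′ to 5′ DNA exonuclease that clears cytosolic DNA. It lies on chromosome 9 (109057932 to 109059723, minus strand). Its counts were 349, 266 and 301 in untreated replicates 1 to 3 and 215, 291 and 267 in doxycycline replicates 1 to 3, which scaled to 7.95, 7.97 and 8.04 CPM and to 6.76, 7.13 and 6.97 CPM. The doxycycline libraries were all lower. The means were 7.99 ± 0.0464 and 6.95 ± 0.183 CPM (SD, n = 3 each). The fitted log2 fold change was -0.20 (SE 0.12, with adjusted p 0.418 by edgeR, interval 0.738-fold to 1.03-fold). The spread among replicates, 0.581% of the mean in untreated and 2.63% in doxycycline libraries, was smaller than the counting error of a single library, 5.35 to 6.82%. The SD of the CPM is thus smaller than counting alone would give. In the GENCODE annotation all 1147 exonic bases of Trex1 are also exonic in Atrip, a checkpoint gene on the same strand. By that annotation, reads from the stretch cannot be assigned to either gene by position. The counts rest on the annotation of the authors, which may differ, and Trex1 did receive counts. Atrip stood at 16.5 ± 0.826 and 19.6 ± 0.859 CPM, higher in all doxycycline libraries (log2 fold change 0.24, SE 0.08, with adjusted p 0.132 by edgeR).

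Apobec3 encodes the cytidine deaminase of the APOBEC3 family in the mouse, which acts on single-stranded DNA and restrains retroelements. It lies on chromosome 15 (79892058 to 79918218, plus strand). The untreated libraries had 41.5, 39.4 and 40.6 CPM, and the doxycycline libraries 39.2, 39 and 38.6 CPM. The groups did not overlap, with a gap of 39.4 against 39.2 CPM between the nearest libraries. The means were 40.5 ± 1.05 and 38.9 ± 0.315 CPM (SD, n = 3 each). By the fit the log2 fold change was -0.06 (SE 0.06, with adjusted p 0.696 by edgeR, interval 0.88-fold to 1.05-fold). Apobec3 shares 676 exonic bases with D730005E14Rik, at about 1 CPM, and 100 with Cbx7 on the other strand. Of 4 other cytidine deaminase genes 3 were tested, all under 3 CPM on average, and 0 were called. Apobec2, a muscle-associated family member, had the smallest p at 0.302 ± 0.0978 and 0.529 ± 0.0743 CPM (log2 fold change 0.82, SE 0.44, with adjusted p 0.373 by edgeR).

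RNase H2 is a heterotrimer of the catalytic subunit RNASEH2A and of RNASEH2B and RNASEH2C, which form its accessory pair. Rnaseh2a lies on chromosome 8 (84956610 to 84969598, minus strand). It had 34.5, 35 and 32.3 CPM in untreated replicates 1 to 3 and 35.4, 34.1 and 32.8 CPM in doxycycline replicates 1 to 3. The groups overlapped almost entirely. The means were 33.9 ± 1.47 and 34.1 ± 1.29 CPM (SD, n = 3 each). The fitted log2 fold change was 0.0064 (SE 0.07, with adjusted p 0.976 by edgeR, interval 0.913-fold to 1.11-fold). Rnaseh2a shares 339 exonic bases with Gm49661 on the same strand, which was not analysed here, and 177 with Prdx2, a peroxiredoxin gene on the other strand. Prdx2 stood far above it, at 308 ± 3.04 and 278 ± 2.81 CPM, and lower in all doxycycline libraries (log2 fold change -0.15, SE 0.04, with adjusted p 0.0652 by edgeR). The part of these shared bases in the level of Rnaseh2a was not tested.

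Rnaseh2b lies on chromosome 14 (62332068 to 62372996, plus strand). Its untreated libraries had 19.3, 16.8 and 20.3 CPM, and its doxycycline libraries 21.3, 22.6 and 21.8 CPM. Here the doxycycline libraries were all higher, and untreated replicate 2 was the lowest. The means were 18.8 ± 1.77 and 21.9 ± 0.649 CPM (SD, n = 3 each). This gave a log2 fold change of 0.22 (SE 0.08, with adjusted p 0.194 by edgeR, interval 1.03-fold to 1.31-fold). Rnaseh2b had the highest log2 fold change of the members. Its value ran from 0.15 to 0.27 over the 16 alternatives, and its adjusted p from 0.0985 to 0.512.

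Rnaseh2c lies on chromosome 19 (5601873 to 5602959, plus strand). Its levels were 24.2, 23 and 20.6 CPM in untreated replicates and 23.8, 22.4 and 16.4 CPM in doxycycline replicates. The groups overlapped, and doxycycline replicate 3 was lower than the other 5 libraries. The means were 22.6 ± 1.8 and 20.9 ± 3.9 CPM (SD, n = 3 each). This gave a log2 fold change of -0.12 (SE 0.11, with adjusted p 0.652 by edgeR, interval 0.786-fold to 1.08-fold). Without doxycycline replicate 3 the log2 fold change was 0.03 (edgeR adjusted p 0.929), so the sign rested on that library. Rnaseh2c was the member with the largest spread, with a within-group SD of 0.22 in log2 CPM against a median of 0.10 over all tested genes. It shares 426 exonic bases with Kat5, an acetyltransferase gene on the other strand, which stood at 38.4 ± 1.42 and 43 ± 1.2 CPM (log2 fold change 0.16, edgeR adjusted p 0.18).

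Since the subunits act in one complex, their counts were compared within each library. The ratio of Rnaseh2b to Rnaseh2c counts was 0.798, 0.734 and 0.984 in untreated replicates 1 to 3 and 0.896, 1.01 and 1.33 in doxycycline replicates 1 to 3. The groups overlapped. The mean log2 ratio was -0.26 in untreated and 0.09 in doxycycline libraries, a difference of 0.35 (two-sided exact permutation test, p 0.2, adjusted over 3 ratios 0.3, where the smallest p possible is 0.1). For Rnaseh2b to Rnaseh2a the difference in log2 ratio was 0.22 (exact permutation p 0.2, adjusted 0.3), and for Rnaseh2c to Rnaseh2a it was -0.14 (exact permutation p 0.6, adjusted 0.6). The profiles most like those of the subunits came from unlike genes. Gpr39 and Fxr1 were nearest to Rnaseh2a (mean differences of 0.0070 and 0.0077 in centred log2 CPM), Gpr63 and Bloc1s2 to Rnaseh2b (0.0343 and 0.0346), and Foxo4 and Cds1 to Rnaseh2c (0.0384 and 0.0423). Over 13084 genes and 6 libraries such matches are a description.

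L1td1 derives from an L1 open reading frame and is known from pluripotent and germ cells. It lies on chromosome 4 (98726754 to 98738486, plus strand). No library held a read of it (0 counts in each of 6). By a floor of 3 counts, which covers counting error only, a level of up to 0.0683 to 0.0944 CPM would go unseen, depending on the library. Other genes of germline and stem cells, both retrotransposon factors and pluripotency genes, were also low. Of 13 such genes 7 had 0 counts in every library, including the PIWI gene Piwil1 and the pluripotency genes Lin28a and Dppa4. Only Mov10l1, the germline relative of Mov10, and the PIWI genes Piwil2 and Piwil4 were tested, and 0 were called. Piwil2 had the smallest p of these (log2 fold change 0.70, SE 0.58, with adjusted p 0.6 by edgeR) at 0.192 and 0.309 CPM.

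To compare levels between genes, CPM was divided by the length of the principal transcript, which gives RPKM, that is, CPM per kilobase of transcript. On this scale Samhd1 was the most abundant member (29.8 ± 0.433 RPKM in untreated libraries), followed by Mov10 (26.2 ± 0.3), Zc3hav1 (23.3 ± 0.277), Rnaseh2c (20.1 ± 1.6), Apobec3 (17.2 ± 0.446), Rnaseh2b (12.6 ± 1.19), Rnaseh2a (11.4 ± 0.492) and Trex1 (7.37 ± 0.0428; SD, n = 3 each). The median over tested genes with a length was 9.52 RPKM, so Samhd1 lay above 80.2% of them and Trex1 above 43.3%. By the principal transcript Samhd1 ranked first and Trex1 last of the tested members in all 6 libraries. The place of Trex1 carries the limit given above, that its exonic bases are shared with Atrip. The neighbors Mov10 and Zc3hav1 exchanged places in doxycycline replicates 2 and 3, and Apobec3 and Rnaseh2c in doxycycline replicate 3, while in the untreated libraries the values of both pairs lay apart. Rnaseh2a and Rnaseh2b exchanged places in untreated replicate 2, so this pair did not differ beyond its spread in untreated libraries. The order depended on the length used. Rnaseh2a has 3 principal transcripts of 1532 to 2981 bases, and the shortest gives it 22.2 RPKM. With the merged length of all exons Zc3hav1 came first (17.7 RPKM), then Mov10 (16.2), Rnaseh2c (13.2) and Samhd1 (12.8). On that length Trex1 (6.96) stood above Apobec3 (4.29) and Rnaseh2b (3.01), which was then the last of the tested members.

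Because some members respond to interferon, they were set beside 16 interferon-response genes. Of these 0 were called. Their median log2 fold change was 0.13, with 14 above 0 and 2 below, where 50.8% of all tested genes lay above 0. An unadjusted p under 0.05 by edgeR was held by 2, beside 16.2% of all tested genes. Ifit2 was lower (28.5 ± 1.08 and 25 ± 2.16 CPM, log2 fold change -0.20, edgeR adjusted p 0.201) and Bst2, the tetherin gene, higher (32.2 ± 1.83 and 41.9 ± 9.72 CPM, log2 fold change 0.38, edgeR adjusted p 0.246), neither past the threshold; Bst2 is named because of its value. The mean log2 CPM of the 16 genes ranged from 4.23 to 4.35 in the untreated libraries and was 4.45, 4.64 and 4.17 in doxycycline replicates 1 to 3. Doxycycline replicate 2 was thus the highest of all libraries and replicate 3 the lowest. Among the doxycycline libraries Mov10, Zc3hav1, Samhd1, Trex1 and Rnaseh2b were likewise highest in replicate 2, while Apobec3, Rnaseh2a and Rnaseh2c were highest in replicate 1. Mov10, Zc3hav1, Apobec3, Rnaseh2a and Rnaseh2c were lowest in replicate 3, and Samhd1, Trex1 and Rnaseh2b in replicate 1. The part of the interferon genes in the values of the members was not tested.

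**Figure D3:**
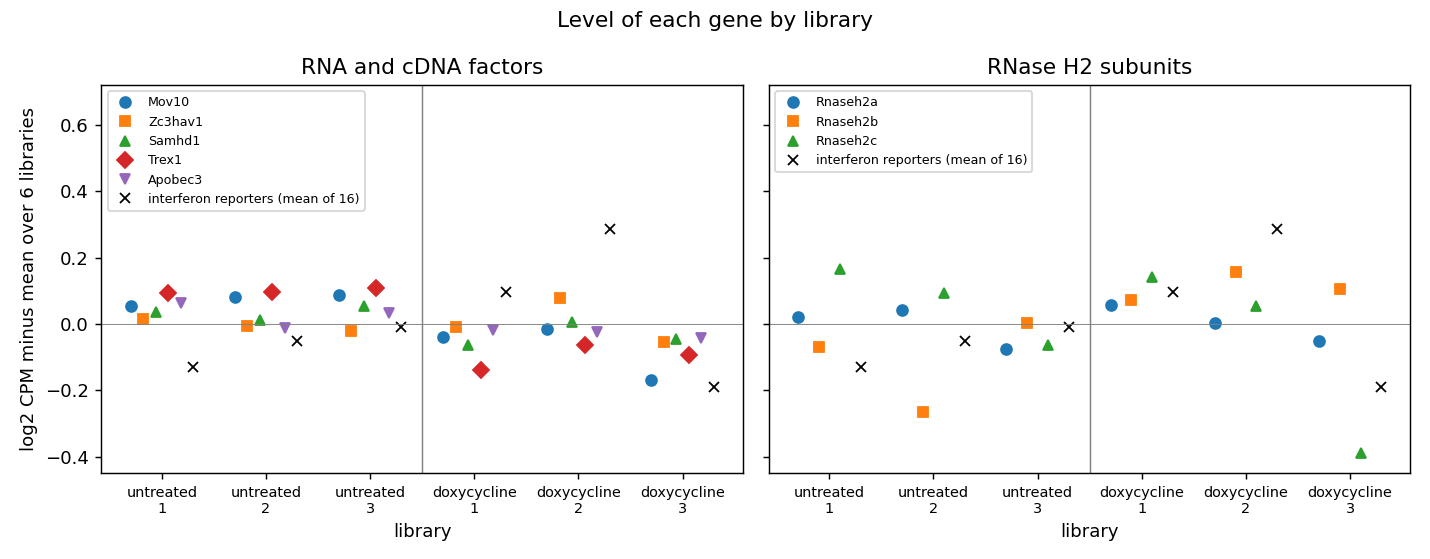
Log2 CPM of each gene minus its mean over the 6 libraries (vertical axis), by library, for the RNA and cDNA factors at the left and the RNase H2 subunits at the right, with the mean of 16 interferon-response genes as crosses. Doxycycline replicate 2 holds the highest interferon value and replicate 3 the lowest, and Rnaseh2c in doxycycline replicate 3 is the lowest point of the members.

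The promoters of the members were searched for the interferon-stimulated response element core (GAAA, any 2 bases, GAAA) on both strands and for the gamma-activated sequence (TTC, any 3 bases, GAA), which matches itself on the other strand. RefSeq windows of 250 bases before to 50 after a transcript start (GRCm38.p6) were matched for 8 of the 9 genes, 11 windows in all. Rnaseh2b had no window and was not searched. The first motif was in 1 of the 11 windows and in 3.44% of all 32851 windows, and the second in 2 of the 11 and in 8.3% of all. The matches are shown 5′ to 3′ on the strand of the gene, with the motif in capitals, as the places in the searched windows where a pattern matched.
Apobec3: tcagttagTTTCCCTTTCtctttgcg
Samhd1: accaccctTTCGGAGAAacacaagg
Rnaseh2a: ctgcagttTTCGCGGAAaacgcgcg
Positions count from the RefSeq start of each window, which need not be the outermost start of the gene. The Apobec3 match, on the opposite strand, begins at position -140 (chr15:79892260-79892285 for the bases shown) from a start at 79892408, and lies 210 bases inside the outermost start of the gene. The Samhd1 match begins at -235 (chr2:157135315-157135339, minus strand), and here the starts are the same. The Rnaseh2a match begins at 16 (chr8:84966044-84966068, minus strand) from a start at 84966076, and lies 3538 bases inside the outermost start. These are descriptions of letters in the windows. None of the 3 genes passed the test, with log2 fold changes of -0.06, -0.07 and 0.0064 in the order shown.

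**Figure D4:**
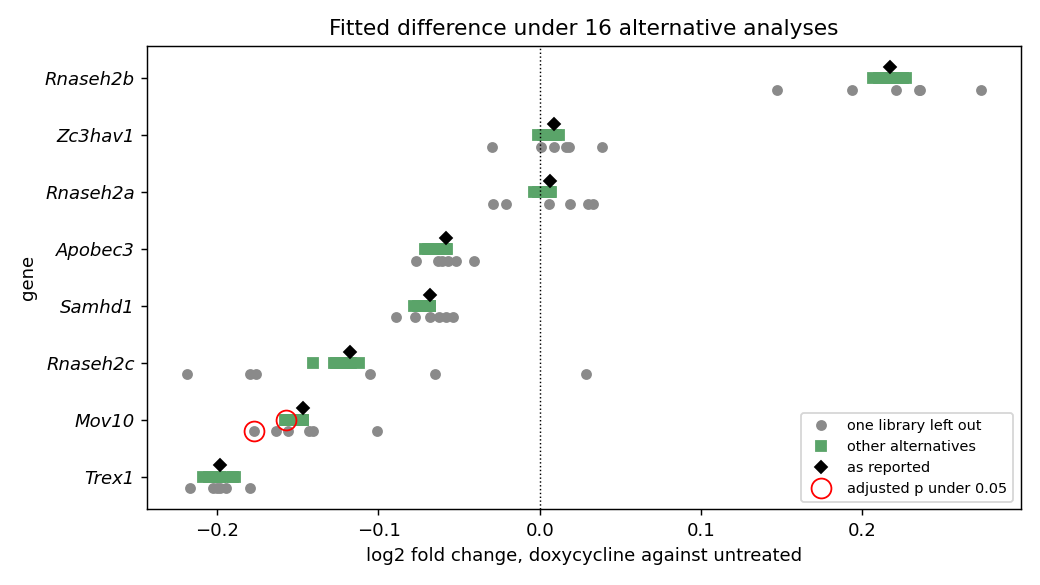
Log2 fold change of each member (horizontal axis) as reported (diamonds), with 1 library left out (circles) and under the other alternative analyses (squares), with red rings where the adjusted p is under 0.05. Both rings belong to Mov10, and the circles of Rnaseh2c reach from -0.22 to 0.03.

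**Figure D5:**
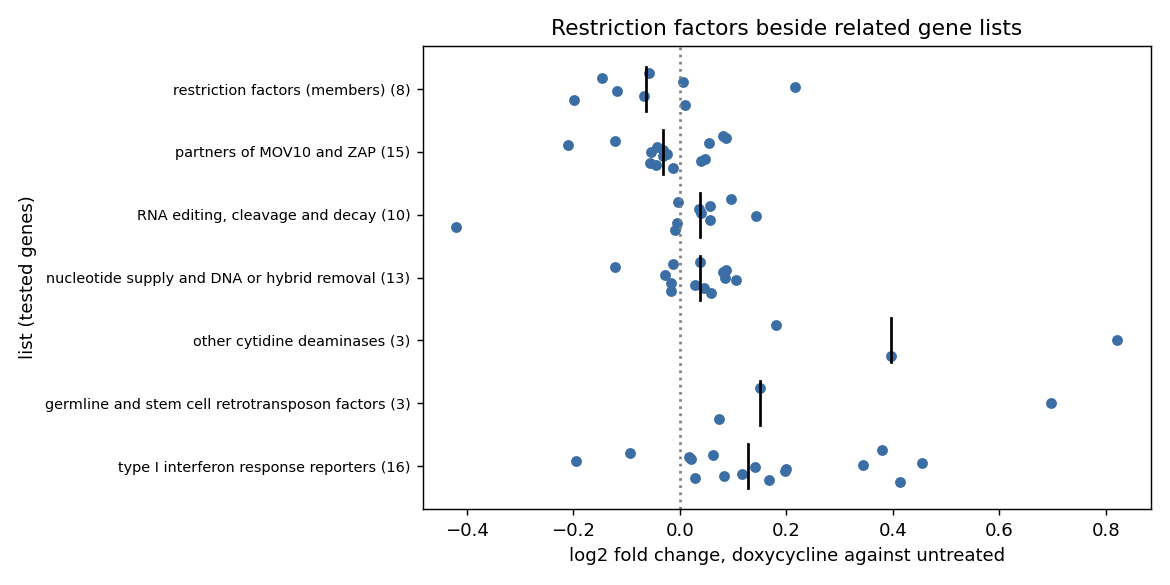
Log2 fold change of every tested gene (points) in the restriction factor list and 6 related lists, with the number tested in parentheses and the median as a bar. No point belongs to a gene past the adjusted threshold, and the points farthest from 0 are from genes under 1 CPM such as Apobec2 and Piwil2.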

How the data were processed

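RNA-seq libraries of 6 samples were made after rRNA depletion with a strand-marking kit. The authors aligned reads to mm10/GRCm38 with STAR and counted them per gene with featureCounts (Subread 1.6.2 in the submitters' processing notes), and the deposited values are raw counts per gene, with replicates kept apart and no normalization. The strand setting and the treatment of reads with several matches are not given in the sources used here.

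Groups came from the sample titles, and columns were matched by library code. The test was edgeR 4.0.16 (R 4.3.3), quasi-likelihood with robust estimation, TMM scaling, filterByExpr (13084 genes kept) and group as the only term, with Benjamini-Hochberg adjustment over all tested genes at 0.05. The study used DESeq2, which was run as an alternative (1.42.0), as was limma voom (3.58.1). SE was taken from the log2 fold change and the F statistic (size over root F), and the 95% intervals built on it are not adjusted. CPM uses TMM-scaled totals, log2 CPM a prior count of 2. Transcript lengths, GC content and overlaps are from GENCODE M21, which may differ from the annotation of the authors. No replicate pair agreed within counting noise (chi-square per degree of freedom 6.14 to 22.1), and each library counted once. That check took in the rRNA gene Rn45s, at 8.83 to 12.1% of the counts of a library. It cannot tell separate cultures from separate preparations of the same RNA. The procedure was tested on simulated data, and the outcome of that is not given here. Sample columns left unmatched numbered 0. Members and lists were chosen with earlier results of these data known. Named genes are all members, every called gene of each other list (at most 3) or else its gene with the smallest p, the most similar profiles, overlapping genes that bear on a member, and those said to be named for their value. Outside this rule, the epithelial and leukocyte markers and the germline and stem cell genes given beside their lists were chosen after their values were seen.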

Additional observations from a re-analysis of the deposited data

How the results depend on the processing

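With 3 libraries a group the depth limits Trex1 most, at 215 to 349 counts. The member counts called higher were 0 in all 16 alternatives. Members called lower were 1 (Mov10) with the GC content and length correction, and ran from 0 to 1 over the 6 fits that left out a library, being 1 without doxycycline replicate 2. The number of genes called higher and lower was 210 and 439 without a filter, 357 and 479 with the GC content and length correction, and 296 and 445 with that correction and the replicate block, against 121 and 283 as reported. Leaving out 1 library gave 44 to 269 higher and 116 to 487 lower, the fewest without untreated replicate 3 and the most without doxycycline replicate 2. The cause of these shifts was not tested. Values near 0 changed sign: Zc3hav1 was -0.00098 with library size only and ran from -0.029 to 0.038 when a library was left out. Rnaseh2a was -0.00024 with upper quartile factors, -0.0033 with library size only, -0.0011 with the GC content and length correction and -0.00020 with the replicate block added to it, and ran from -0.029 to 0.033 when a library was left out. Rnaseh2c ran from -0.22 to 0.029 when a library was left out. Mov10, Samhd1, Trex1 and Apobec3 stayed below 0 and Rnaseh2b above 0 in all 16. No pairing of the libraries by replicate number was seen (correlations of same-numbered deviations -0.0399, -0.0045 and 0.0176, with all pairs between -0.0492 and 0.0533). Only doxycycline replicate 3 correlated best with its own number. Values this small do not establish that no pairing exists. The fit with the replicate block gave 118 genes higher and 300 lower, with 0 members called. No scaling moved the median of all genes beyond -0.0074.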
